A study of Mus musculus with 16 samples.

Results

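Adat3 and Scamp4 are overlapping genes on the plus strand of mouse chromosome 10, read here in adult mouse cardiomyocytes exposed to linagliptin or vehicle. The members are all lines named Adat3 or Scamp4 in the deposited tables, 3 of 11631 gene rows and 5 of 23055 transcript rows. The pair was chosen by its FPKM in DM-HFD libraries, where Adat3 and Scamp4 moved in opposite directions between linagliptin and vehicle, so its values in DM-HFD libraries are described here without a test. Control cells came from C57BL/6 mice aged approximately 8 weeks. DM-HFD cells came from C57BL/6 mice kept for 26 weeks on a high fat diet, with streptozotocin, a toxin of the insulin-secreting beta cell, given after 12 weeks of that diet. Cells of both kinds were primary cultures of adult cardiomyocytes kept for 24 h with 9 nmol/L linagliptin, an inhibitor of dipeptidyl peptidase-4, or with 0.1% DMSO, the vehicle. The libraries of polyadenylated RNA came from 5 control cultures with vehicle, 5 control cultures with linagliptin, 3 DM-HFD cultures with vehicle and 3 DM-HFD cultures with linagliptin. Diet, streptozotocin and age differ together between the kinds of mice, so their parts cannot be told apart. The labels do not say which cultures came from the same mouse, so p-values measure the spread between these libraries only.

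Adat3 encodes a subunit of the tRNA adenosine deaminase. With its partner Adat2, the catalytic subunit, it converts adenosine to inosine at the wobble position of several tRNAs, which lets a single tRNA read more than 1 codon. Scamp4 encodes a secretory carrier membrane protein, a family of membrane-spanning proteins of post-Golgi and recycling vesicles. Scamp4 and Scamp5 lack the N-terminal NPF repeats that Scamp1, Scamp2 and Scamp3 carry.

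Under the name Adat3 the tables held 2 gene rows with different exons. The long row (ENSMUSG00000035370.9) spans chr10:80606021-80615784 in the GRCm38 annotation of GENCODE M21, where the same identifier carries the name Gm49322. The short row (ENSMUSG00000113640.1) spans chr10:80602880-80607654 and is named Adat3 in that annotation too. The Scamp4 row (ENSMUSG00000113949.1) spans chr10:80602872-80615783. Each of the 3 rows is protein coding. Adat3-201, the listed transcript of the long row, has 6 exons and 4516 exonic bases, and Adat3-204, that of the short row, has 2 exons and 1411. Both hold the same coding interval of 1047 bases without the stop codon, so the Adat3 protein they encode is the same. Scamp4-201 has 7 exons, 1804 exonic bases and 690 coding bases.

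Scamp4-201 and Adat3-204 each share most of their exonic bases with Adat3-201 (see the map of exons and coding parts). Of the 1804 exonic bases of Scamp4-201, 1734 (96.1%) also lie in Adat3-201, and the 70 that do not are the first exon of Scamp4-201. Of the 1411 bases of Adat3-204, 1341 (95.0%) lie in Adat3-201. Scamp4-201 and Adat3-204 share 70 bases, the same first exon. Adat3-201 therefore runs from the coding exon of Adat3 through the remaining exons of Scamp4, and 1441 of its bases lie in neither of the others. It has 5 introns, all of which are among the 6 introns of Scamp4-201.

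**Figure D1:**
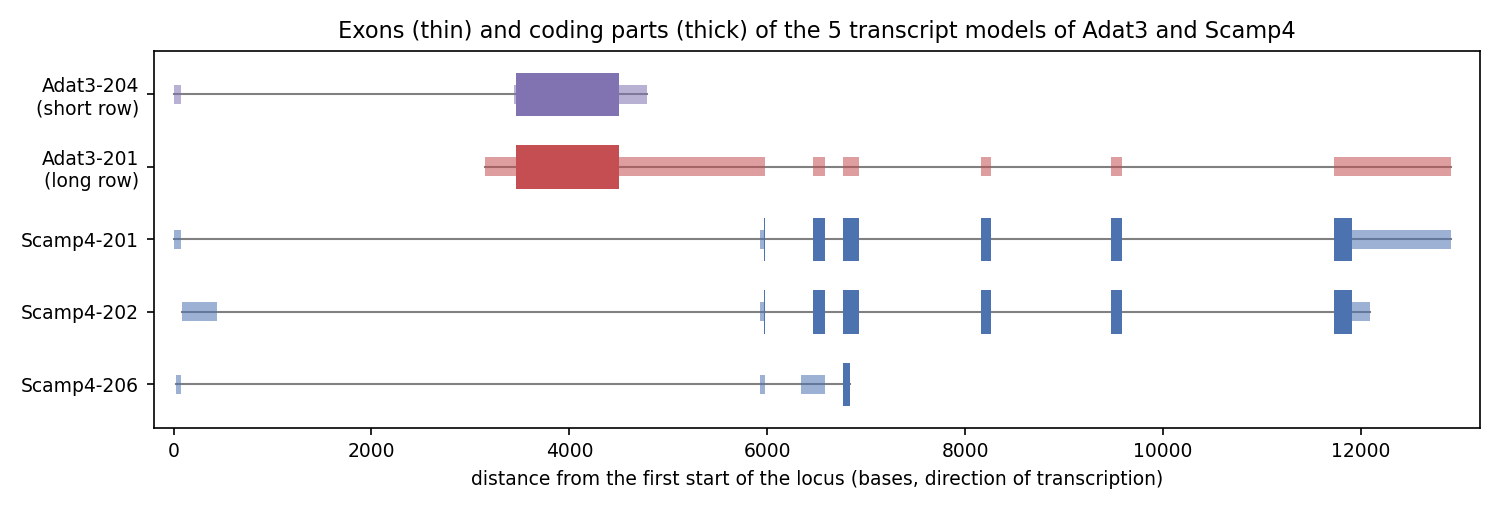
Exons (thin boxes) and coding parts (thick boxes) of the 5 transcript models, by distance in bases from the first start of the locus in the direction of transcription. Adat3-201 of the long row holds the coding part of Adat3 and then every exon of Scamp4-201 but the first, and its coding part is that of Adat3-204.

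The sequences at the splice junctions show what the models share. The first 2 lines below join the common first exon, in capitals, to the second exon of Adat3-204 or of Scamp4-201, in lower case. The last 2 lines are the junction of exons 2 and 3 of Scamp4-201 and that of exons 1 and 2 of Adat3-201, all in capitals because every base is common to both models.
Adat3-204, exon 1 to exon 2: TCGGGTGTCCCTCAGtcgagccccgttgag
Scamp4-201, exon 1 to exon 2: TCGGGTGTCCCTCAGgtggccccttctgcc
Scamp4-201, exon 2 to exon 3: ATACAGAAATGGCAGGAAAGGAGAACAACT
Adat3-201, exon 1 to exon 2: ATACAGAAATGGCAGGAAAGGAGAACAACT
Each is 15 bases on either side of the junction, from GENCODE M21 transcripts on the plus strand of GRCm38. A fragment over the last junction fits Scamp4-201 and Adat3-201 alike, whereas the first exon of Scamp4-201 and its junction to the second belong to Scamp4-201 and not to Adat3-201. The common first exon of Adat3-204 and Scamp4-201 is preceded by this stretch, chr10:80602630-80602871 on the plus strand of GRCm38.p6 (RefSeq), shown because Adat3-204 and Scamp4-201 both start downstream of it and Adat3-201 starts elsewhere.
shared promoter: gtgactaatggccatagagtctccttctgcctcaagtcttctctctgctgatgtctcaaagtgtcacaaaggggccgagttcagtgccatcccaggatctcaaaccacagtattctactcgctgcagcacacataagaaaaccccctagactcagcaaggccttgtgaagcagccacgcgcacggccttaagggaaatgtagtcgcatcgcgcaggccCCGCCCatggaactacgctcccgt
The capitals mark CCGCCC, the reverse complement of the GC box GGGCGG. That motif was found 1 time on either strand here and in 31.6% of 32851 windows of the same 242 bases before mouse genes. CCAAT was found 0 times on either strand (33.2% of windows held it), and TATAAA 0 times (12.1%). The RefSeq promoter windows of Adat3 and Scamp4 are offset by 2 bases and share 298 of 300.

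Values are FPKM, fragments scaled to exon length and to library size, so levels can be compared between genes per length. The number of reads behind each value was not analysed here, so precision rests on the replicates. A library summed to between 315152 and 405457 FPKM, of which mitochondrially encoded genes took between 26.5% and 52.2%. The 8 cardiomyocyte markers summed to between 7019 and 12255 FPKM in a library. The 5 macrophage markers in the table (Ptprc was not in it) summed to between 51.4 and 75.2 FPKM in control libraries, 66.5 to 136 in DM-HFD vehicle and 60.6 to 239 in DM-HFD linagliptin. The 6 endothelial markers summed to 96.2 to 172 FPKM in control libraries, 49.7 to 77.3 in DM-HFD vehicle and 40.4 to 105 in DM-HFD linagliptin. The 4 red cell markers summed to 6.81 to 19.8 FPKM in control libraries, 19.7 to 84.0 in DM-HFD vehicle and 6.92 to 435 in DM-HFD linagliptin, and the 7 fibroblast markers to 19.9 to 30.5, 9.66 to 49.1 and 9.91 to 77.7. The part of these other cells in the values below was not tested, and fewer cells of a type cannot be told apart from less RNA per cell in bulk samples.

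The long row of Adat3 was either near 1 FPKM or near 5 in most libraries. In control vehicle libraries it was 0.591, 5.36, 0.785, 0.617 and 0.950 FPKM in replicates 1 to 5. Replicate 2 lay far above the other 4, which were all below 1. In control linagliptin libraries it was 4.50, 1.94, 0.912, 1.07 and 4.59 FPKM in replicates 1 to 5, so that replicates 1 and 5 lay at the level of control vehicle replicate 2. In DM-HFD vehicle libraries it was 4.54, 5.64 and 5.55 FPKM and in DM-HFD linagliptin libraries 0.808, 1.23 and 1.08. Over the 16 libraries 6 lay above 4 FPKM and 10 below 2, and control linagliptin replicate 2, at 1.94, was the highest of the latter.

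Scamp4 was low where the long row was high. In control vehicle libraries it was 10.7, 1.32, 11.2, 10.2 and 11.7 FPKM in replicates 1 to 5. Replicate 2 again stood apart, here below the other 4. In control linagliptin libraries Scamp4 was 3.35, 1.87, 9.74, 12.4 and 3.92 FPKM, low in replicates 1, 2 and 5. In DM-HFD vehicle libraries it was 3.11, 3.02 and 5.42 FPKM and in DM-HFD linagliptin libraries 11.2, 17.8 and 20.7. In the 6 libraries with the long row above 4 FPKM, Scamp4 lay between 1.32 and 5.42 FPKM, and in the 9 with the long row below 1.5 it lay between 9.74 and 20.7.

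The short row of Adat3, which is named Adat3 in GENCODE M21 too, was low throughout. It was 0.405, 0.277, 0.346, 0.513 and 0.227 FPKM in control vehicle libraries and 0.975, 0.968, 0.158, 0.404 and 0.468 in control linagliptin libraries. In DM-HFD vehicle libraries it was 0.0650, listed at 0, and 0.415 FPKM, and in DM-HFD linagliptin libraries it was listed at 0, 0.330 and 0.278. The groups overlapped in every comparison. Control vehicle replicate 2, highest of its group for the long row, lay within its group for the short row. In control linagliptin libraries the short row was highest in replicates 1, 2 and 5, where Scamp4 was low, and in DM-HFD cells it was at similar levels with vehicle and with linagliptin.

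**Figure D2:**
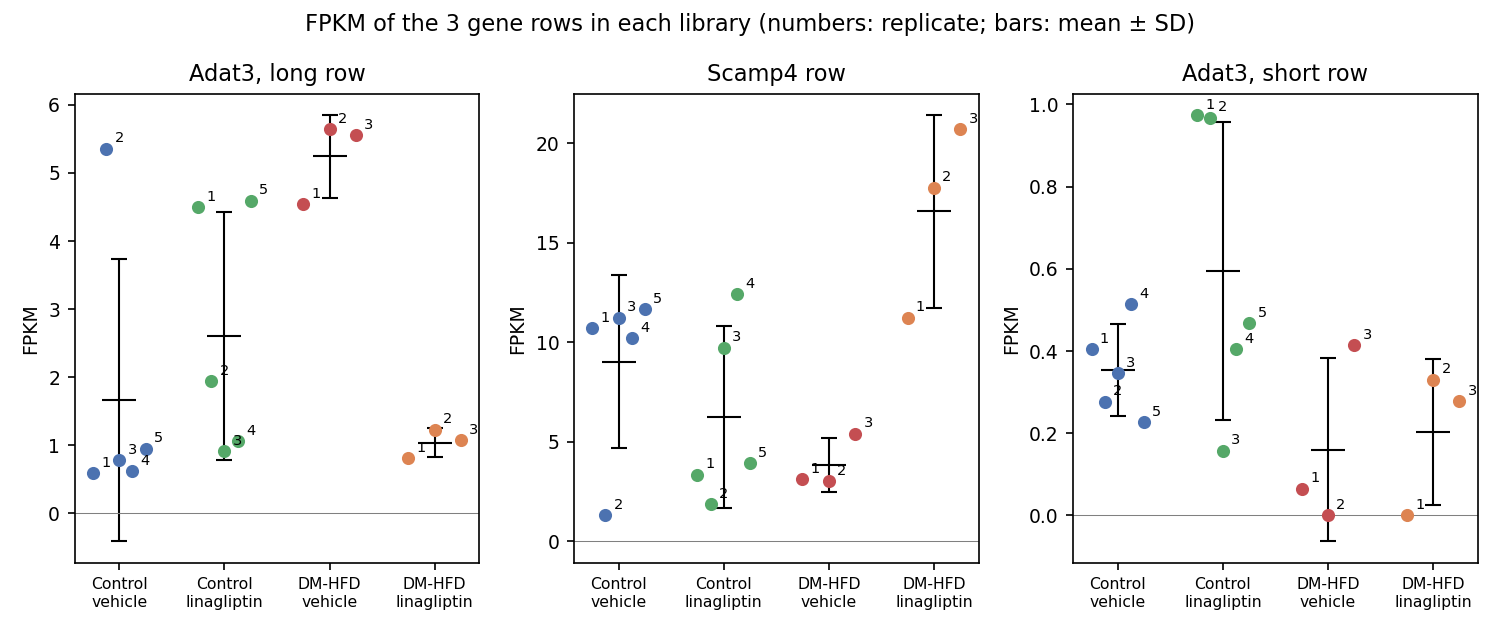
FPKM of the long row of Adat3, of Scamp4 and of the short row of Adat3 in each library (points, numbered by replicate) by condition, with the mean ± SD (bars; n = 5 in control and n = 3 in DM-HFD conditions). The long row is high and Scamp4 low in control vehicle 2, control linagliptin 1 and 5 and the 3 DM-HFD vehicle libraries.

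In DM-HFD cells the long row was 5.24 ± 0.610 FPKM with vehicle and 1.04 ± 0.214 with linagliptin (mean ± SD, n = 3 each), a difference of -1.62 on the log2(FPKM + 1) scale. Scamp4 was 3.85 ± 1.36 FPKM with vehicle and 16.6 ± 4.85 with linagliptin (mean ± SD, n = 3 each), a log2 difference of 1.85. For both rows no linagliptin library overlapped a vehicle library, and this was so for 6.28% of 11127 genes tested. As these values chose the pair, they are a description. The short row was 0.160 ± 0.223 FPKM with vehicle and 0.203 ± 0.178 with linagliptin. Its log2 difference was 0.06, and its groups overlapped. In this comparison 0 of 11127 genes (0%) had an adjusted p under 0.05 from limma, which fits a linear model to every gene and pools information on the spread. An unadjusted p under 0.05 was met by 129 genes. The model of Ballgown, the package the study used, was imitated in limma by adding its term for the level of each library. With it 0 genes passed and 848 had an unadjusted p under 0.05. The study called genes at an unadjusted p of 0.05 and a fold change of 1.5, so its counts are not comparable with these.

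In control cells, which did not serve to choose the pair, the same comparison was tested. Earlier results had already shown the values of control vehicle replicate 2, so the test was not set blind to them. The long row was 2.60 ± 1.82 FPKM with linagliptin and 1.66 ± 2.07 with vehicle (mean ± SD, 5 libraries each), a log2 difference of 0.53 (standard error 0.42, adjusted p = 0.997 from limma). Scamp4 was 6.26 ± 4.56 FPKM with linagliptin and 9.03 ± 4.35 with vehicle (mean ± SD, 5 libraries each), a log2 difference of -0.48 (standard error 0.52, adjusted p = 0.997 from limma). The short row differed by 0.21 (standard error 0.14, adjusted p = 0.997 from limma). The groups overlapped for all 3 rows (0.757% of genes tested did not overlap), and the differences were within the spread of the replicates. The signs for the long row and Scamp4 were opposite to those in DM-HFD cells, and the difference between the kinds of mice was not tested because the DM-HFD values chose the pair. The log2 ratio of both Adat3 rows together to Scamp4, with 1 FPKM added to each, was -0.70 ± 1.56 with linagliptin and -1.70 ± 1.80 with vehicle (mean ± SD, n = 5 each; exact two-sided permutation test, p = 0.421). Each library was left out in turn, and control vehicle replicate 2 is singled out here after seeing its values. Without it the difference in this ratio went from 1.00 to 1.80 (exact two-sided permutation test, p = 0.0635). Those in the long row and Scamp4 went from 0.53 to 0.91 and from -0.48 to -0.96 (adjusted p = 0.948 from limma for both). Of 11365 genes, 0 passed (0%), 455 had an unadjusted p under 0.05, and 0 passed with the model of Ballgown.

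Between DM-HFD and control cells the members' values are again a description. With vehicle, the long row was higher in DM-HFD by 1.47 on the log2 scale and Scamp4 lower by a log2 difference of -0.86, which turned to 0.0832 with the model of Ballgown. The groups overlapped for both, where 33.3% of genes did not overlap, because control vehicle replicate 2, with 5.36 FPKM of the long row and 1.32 of Scamp4, lay among or beyond the DM-HFD libraries. Without that library the log2 differences were 1.85 and -1.33. With linagliptin the long row differed by -0.67 and Scamp4 by 1.47, and the groups overlapped for both, where 28% of genes did not. The short row differed by -0.24 with vehicle and -0.39 with linagliptin, and its groups overlapped too. Across all genes tested the median log2 difference was -0.20 with vehicle and -0.06 with linagliptin. Each group of libraries enters a pair of the 4 comparisons, so these values are not independent of each other.

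Multiplying the FPKM of a row by its exon length in kilobases gives the fragments per 1000000 that were assigned to it (FPM), and these can be added over overlapping rows. Together the 3 rows took 29.1, 27.8, 31.2, 28.1 and 32.7 FPM in control vehicle libraries. Control vehicle replicate 2 was thus at 27.8, close to the other 4, although the long row and Scamp4 had changed places there. In control linagliptin libraries the total was 30.0, 14.9, 27.8, 35.4 and 31.0, with replicate 2 lowest of the 16 libraries. In DM-HFD vehicle libraries it was 28.1, 32.8 and 38.8, and in DM-HFD linagliptin libraries 30.7, 48.8 and 55.1. The last 2 were the highest of all, while DM-HFD linagliptin replicate 1 lay among the vehicle libraries.

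In control cells the total varied less than its parts. In the 5 control vehicle libraries the coefficient of variation was 7.04% for the total, 125% for the long row and 48.1% for Scamp4. In the 10 control libraries it was 18.9% for the total, 89.3% for the long row and 58.2% for Scamp4. Over all 16 libraries it was 27.9%, 82.2% and 66.8%. Within the DM-HFD conditions the total varied more than the long row, by 16.1% against 11.6% with vehicle and 28.3% against 20.6% with linagliptin (n = 3 each), while Scamp4 varied by 35.3% and 29.3%. On the FPKM scale the sum of the 3 rows had a coefficient of variation of 37.9%, where the rows are weighed without their exon lengths, 4520 bases for the long row, 2405 for Scamp4 and 1648 for the short row. The sum in FPKM differed by -0.24 on the log2 scale between linagliptin and vehicle in control cells (exact two-sided permutation test, p = 0.421). In DM-HFD cells it differed by 0.85 in FPKM and by 0.39 in FPM, both on the log2(value + 1) scale.

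**Figure D3:**
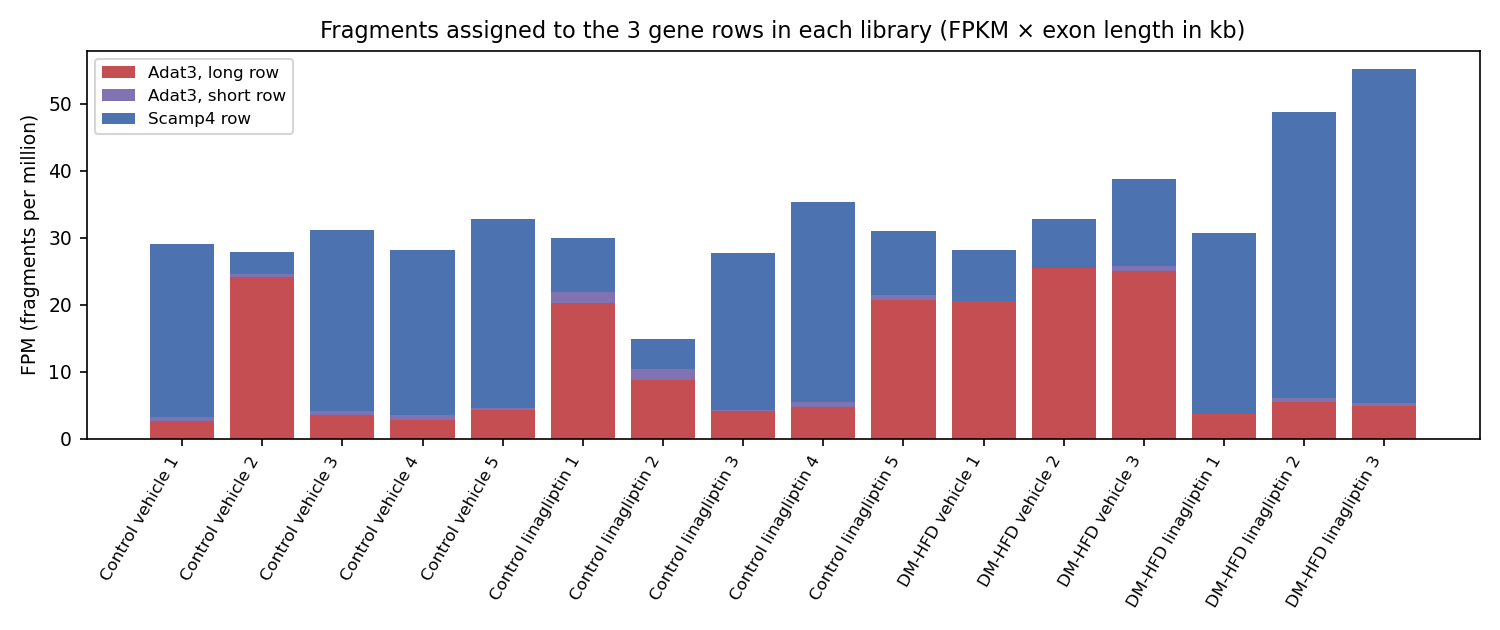
FPM assigned to the long row of Adat3, the short row of Adat3 and Scamp4 in each of 16 libraries, stacked. The total lies between 27.8 and 38.8 in 13 libraries while the red part of the long row takes between 9.18% and 87.0% of it there, and control linagliptin 2 (14.9) and DM-HFD linagliptin 2 and 3 (48.8 and 55.1) lie outside.

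The share of these fragments that the long row took fell into separate ranges. In control vehicle libraries it was 9.18%, 87.0%, 11.4%, 9.91% and 13.1%. In control linagliptin libraries it was 67.8%, 59.0%, 14.8%, 13.6% and 67.1%. In DM-HFD cells it was 73.0%, 77.8% and 64.7% with vehicle and 11.9%, 11.4% and 8.83% with linagliptin. The share was above 50% in 7 libraries, where the lowest value was 59.0%, and below 20% in 9, where the highest was 14.8%. In 0 libraries did it lie between 20% and 50%, bounds set after seeing the data. This gap was not there on other measures. In FPKM the long row took 40.6% of the summed rows in control linagliptin replicate 2 and 48.8% in DM-HFD vehicle replicate 3. Adat3-201 alone took 34.0% of the fragments in control linagliptin replicate 2. By fragments of the whole row, the high range held all 3 DM-HFD vehicle libraries, 3 of 5 control linagliptin libraries and 1 of 5 control vehicle libraries. It held none of the DM-HFD linagliptin libraries.

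Of the transcript rows, Adat3-201 and Scamp4-201 carried most of these values. Adat3-201 ranged from 0.421 to 5.56 FPKM and took between 6.18% and 78.5% of the fragments of the 3 rows. Scamp4-201 ranged from 0.705 to 26.5 FPKM and took between 4.57% and 86.7%. In control vehicle libraries Scamp4-201 was 13.8, 0.705, 14.3, 12.7 and 14.8 FPKM, so the low value of Scamp4 in replicate 2 was that of its main transcript. Scamp4-202, which has another first exon and the same 690 coding bases, lay between 0.162 and 1.01 FPKM in all 16 libraries. In control vehicle libraries it was 0.381, 0.639, 0.633, 0.607 and 0.574 FPKM, so that replicate 2 lay near replicates 3, 4 and 5, whereas Scamp4-201 was far lower there than in the other 4. Scamp4-206, a short model of 411 exonic bases, and Adat3-204 were each listed at 0 in 3 libraries and reached 1.06 and 1.14 FPKM at most. The remainder of the long row, which belongs to transcripts with no line in the transcript table, was between 0.747% and 24.9% of the fragments of the 3 rows, the latter in control linagliptin replicate 2.

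Other overlapping genes were read in the same way. Among genes of the table, 418 pairs shared at least 1 base on the same strand. For each pair the variance of the sum over 16 libraries was divided by the sum of the variances, a ratio that is 1 for values that vary independently and approaches 0 where a rise of 1 gene goes with an equal fall of the other. The median ratio was 1.07 and 13 pairs were below 0.5. Scamp4 and the long row of Adat3 had a ratio of 0.526, which was 17th from the lowest, with values between 0.431 and 0.558 when each library was left out. These libraries include those that chose the pair, so its place is a description. Over the 10 control libraries alone, a reading chosen after seeing the data, the ratio was 0.388, again 17th from the lowest. Over all 16 libraries, on the log2 scale after subtracting the mean of each condition, the ratio was 0.248, 7th of 418. In FPM, also over the 16 libraries, the ratio was 0.309, 8th of 378 pairs. Scamp4 and the short row had a ratio of 0.975, and the 2 Adat3 rows 1.01. The 5 pairs with the lowest ratios in FPKM were Lrch4 and Gm20605 (0.170), Rhbdl1 and Gm20683 (0.181), Rab43 and Gm45140 (0.200), Rnf8 and Gm28043 (0.207) and Tarsl2 and Tm2d3 (0.232). In 4 of these 5 pairs, as for Scamp4 and the long row under its GENCODE name, a named gene overlapped a gene model without a name of its own. Such pairs also lay near 1, as Psmd1 and Gm21972 (0.957) and Etfb and Gm45233 (1.04) did. Their share among all 418 pairs was not counted. How the fragments of shared exons were divided between models was not tested, since the alignments were not analysed here.

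**Figure D4:**
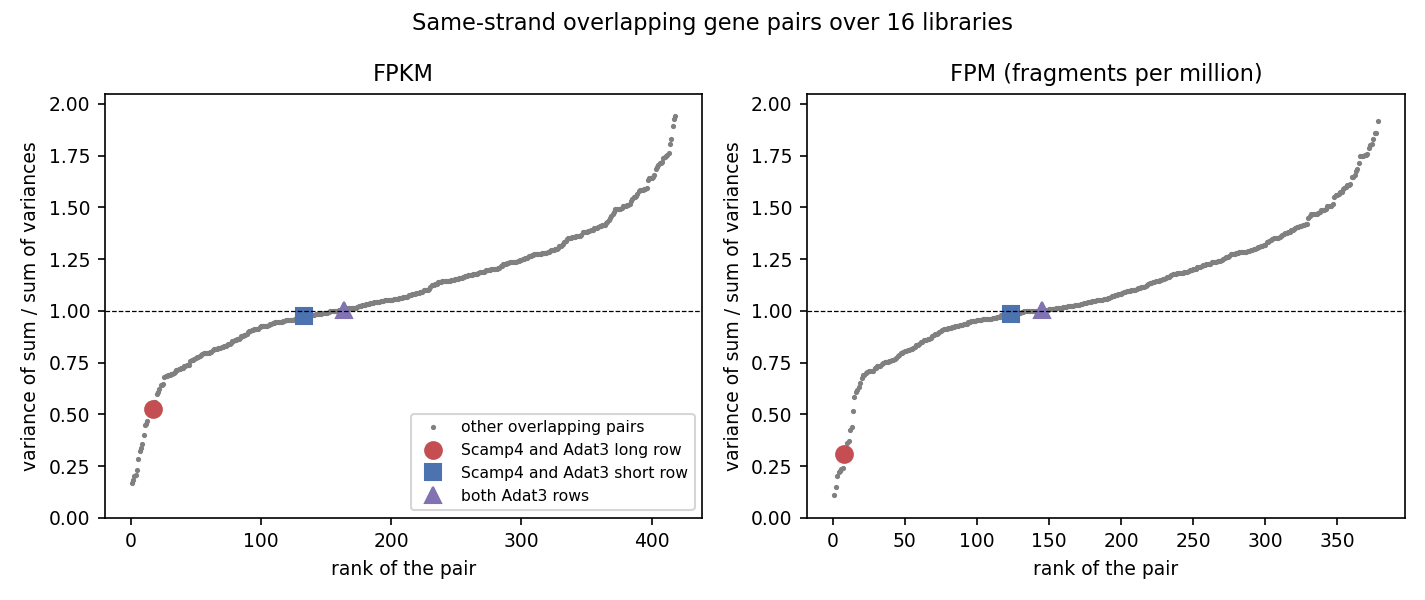
Variance of the sum over the sum of variances for same-strand overlapping gene pairs over 16 libraries, ranked from the lowest, in FPKM (418 pairs) and in FPM (378 pairs). Scamp4 and the long row of Adat3 lie at 0.526 and 0.309, while Scamp4 and the short row and both Adat3 rows lie near 1, the dashed line of independent values.

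Adat2, the partner of Adat3, and the other deaminases of the list showed no counterpart of the opposite movement. Adat2 was 2.88 ± 0.450 FPKM in control cells with vehicle, 2.81 ± 0.670 (SD, n = 5) with linagliptin, and in DM-HFD cells 2.90 ± 0.280 with vehicle and 2.90 ± 0.330 with linagliptin (SD, n = 3 each). Its log2 differences in the 4 comparisons lay between -0.04 and 0.05, and none passed the test. Adat1, which deaminates an adenosine next to the anticodon of alanine tRNA, was between 1.04 and 1.24 FPKM on average in the 4 conditions and passed in none of the comparisons. Adar, which edits double-stranded RNA, did not pass either. Adarb1, the other RNA-editing deaminase of the list, fell in DM-HFD cells with vehicle, from 1.81 ± 0.467 FPKM (SD, n = 5) to 0.843 ± 0.0789 (SD, n = 3), a log2 difference of -0.59 (adjusted p = 0.00955 from limma). With linagliptin it was -0.48 (adjusted p = 0.0170 from limma). Quantile scaling ended both calls, and the model of Ballgown turned the sign with vehicle. Between linagliptin and vehicle 0 of the 4 deaminases passed in either kind of cell, beside 0% of all genes.

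DM-HFD and control cells differed in many genes. With vehicle 3551 of 11359 genes (31.3%) had an adjusted p under 0.05 from limma, 331 higher in DM-HFD (2.91%) and 3220 lower (28.3%). With linagliptin 3069 of 11555 (26.6%) passed, 540 higher (4.67%) and 2529 lower (21.9%). The split depended on the scaling: with median-of-ratios scaling 1525 were higher and 1769 lower with vehicle and 1492 and 1955 with linagliptin, and with quantile scaling 1278 and 1548, and 1466 and 1583. With the model of Ballgown 0 genes passed in either comparison, where 954 and 3847 had an unadjusted p under 0.05. Passing rests on an adjusted p, whereas the study called genes by an unadjusted p and a fold change. Without DM-HFD linagliptin replicate 3 the linagliptin comparison had 106, and without replicate 1 it had 5796. The lists below are read against these shares.

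Of the SCAMP family beside Scamp4, 1 of 4 genes fell and 0 rose in each comparison of DM-HFD with control. This was near the shares of all genes that fell, 28.3% with vehicle and 21.9% with linagliptin. Scamp1 was 11.2 ± 0.734 FPKM (SD, n = 5) in control and 7.76 ± 0.612 (SD, n = 3) in DM-HFD vehicle libraries, with a log2 difference of -0.48 (standard error 0.11, adjusted p = 0.00752 from limma). With linagliptin it was 13.04 ± 1.21 and 7.67 ± 2.43 FPKM, a log2 difference of -0.73 (adjusted p = 0.0177 from limma). Scamp2, Scamp3 and Scamp5 did not pass, with log2 differences of 0.16, 0.22 and -0.08 with vehicle and 0.27, 0.36 and 0.26 with linagliptin. Between linagliptin and vehicle 0 of 4 passed in either kind of cell, and the log2 differences of Scamp1 were 0.19 in control and -0.05 in DM-HFD cells. Rescaling changed the calls with vehicle. With median-of-ratios scaling Scamp1 did not pass (log2 difference -0.22, adjusted p = 0.142 from limma), while Scamp2 and Scamp3 passed as higher (0.43 and 0.50, adjusted p = 0.0430 and 0.0151 from limma), and with quantile scaling Scamp3 alone passed, as higher (0.39, adjusted p = 0.0333 from limma).

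Of the 8 aminoacyl-tRNA synthetases that charge the tRNAs with wobble inosine, 4 fell with vehicle and 0 rose. Of all genes 28.3% fell and 2.91% rose with vehicle. Eprs, the bifunctional glutamyl-prolyl synthetase, went from 20.7 ± 2.60 FPKM (SD, n = 5) in control to 9.94 ± 0.767 (SD, n = 3) in DM-HFD libraries, with a log2 difference of -0.98 (adjusted p = 0.000680 from limma). Lars, for leucine, went from 57.5 ± 8.49 to 34.3 ± 1.40 FPKM, Tars, for threonine, from 19.4 ± 2.12 to 13.3 ± 0.677, and Rars, for arginine, from 40.1 ± 5.78 to 28.7 ± 3.59. Aars, Iars, Sars and Vars did not pass. With linagliptin Eprs, Lars and Tars fell and Vars, for valine, rose from 10.4 ± 0.852 FPKM (SD, n = 5) to 16.1 ± 4.01 (SD, n = 3), with a log2 difference of 0.57 (adjusted p = 0.0339 from limma). The median of the list was -0.47 with vehicle and -0.29 with linagliptin, beside -0.20 and -0.06 for all genes. With vehicle only the falls of Eprs and Lars passed under median-of-ratios and under quantile scaling. With linagliptin, median-of-ratios scaling ended the calls of Eprs, Lars and Tars and left 3 higher (Aars, Sars and Vars) and 0 lower, and quantile scaling gave 1 higher and 4 lower.

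**Figure D5:**
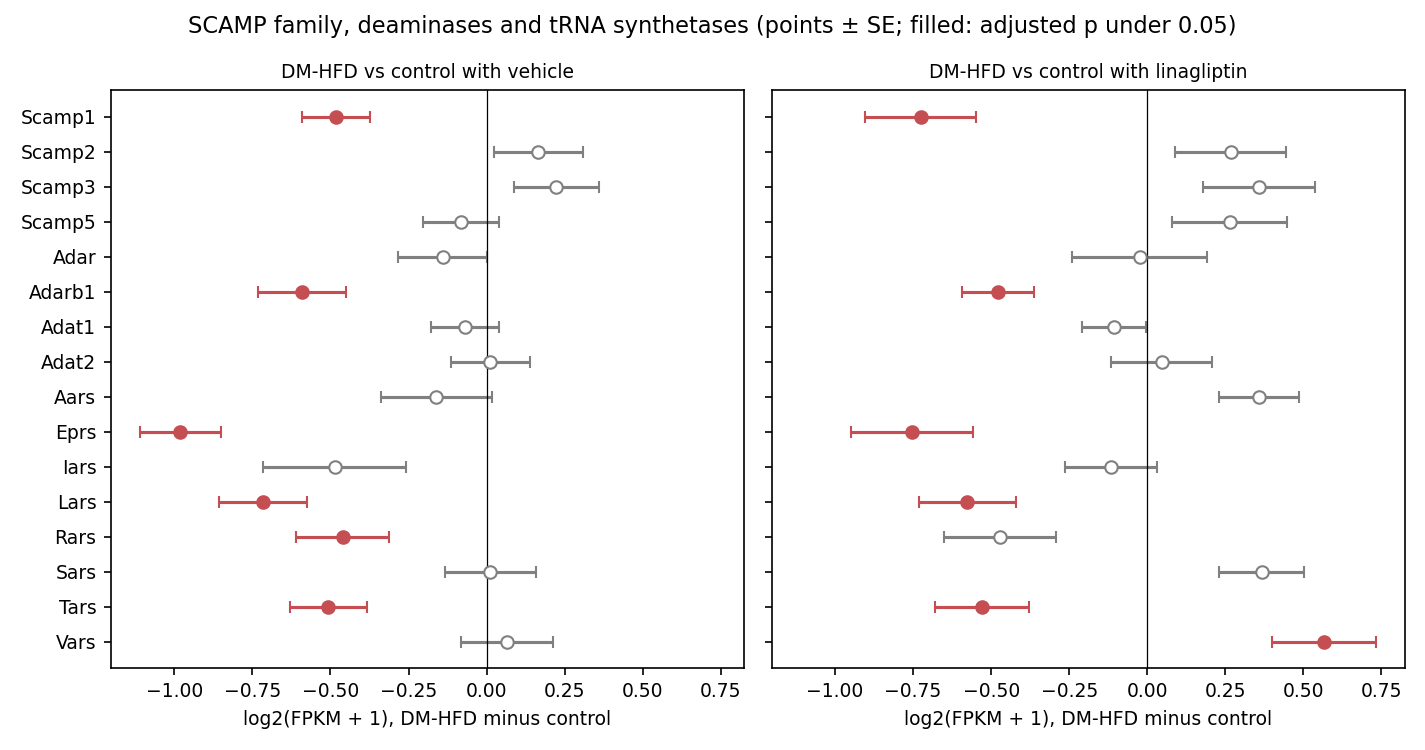
Log2 differences (DM-HFD minus control, on the log2(FPKM + 1) scale, ± standard error from limma) of 4 SCAMP genes, 4 deaminases and 8 synthetases, with vehicle and with linagliptin. Filled points passed an adjusted p of 0.05: Scamp1, Adarb1, Eprs, Lars and Tars lie below 0 in both panels, Rars below 0 with vehicle and Vars above 0 with linagliptin.

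Of 41 other enzymes of tRNA modification, 1 rose and 5 fell with vehicle, and 6 rose and 6 fell with linagliptin. Of all genes 2.91% rose and 28.3% fell with vehicle, and 4.67% rose and 21.9% fell with linagliptin. The medians were -0.04 and 0.11. The split turned with the scaling: with vehicle 7 rose and 2 fell with median-of-ratios scaling, 10 and 1 with quantile scaling and 0 and 15 in TPM, and with linagliptin 8 and 4, 12 and 3, and 1 and 9. Elp5, a subunit of the Elongator complex that modifies wobble uridines, rose from 14.8 ± 2.17 FPKM (SD, n = 5) to 21.1 ± 2.17 (SD, n = 3) with vehicle, a log2 difference of 0.49 (adjusted p = 0.0247 from limma). Qtrt2, a subunit of the enzyme that inserts queuine at wobble guanosines, fell from 3.64 ± 0.449 to 1.67 ± 0.336 FPKM (log2 difference -0.80, adjusted p = 0.00136 from limma). Tyw5 of wybutosine synthesis, Alkbh8 of wobble uridine modification and the pseudouridine synthase Pus3 had log2 differences of -0.78, -0.74 and -0.53. With linagliptin those that rose included Mettl1, the tRNA guanosine methyltransferase, with 0.71, Elp5 with 0.66, the methyltransferase partner Trmt112 with 0.60 and the pseudouridine synthase Pus1 with 0.57. Alkbh8, Pus3, Qtrt2 and Tyw5 again fell, with -0.93, -0.90, -0.88 and -0.58. Gene values added up over transcripts ended the calls of Qtrt2 and Tyw5 in both comparisons, and turned the sign of Tyw5 with vehicle. They also ended the call of Pus3 with vehicle and those of Alkbh8, Elp5 and Mettl1 with linagliptin.

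Of 35 genes of post-Golgi and recycling traffic, 33 were in the table. Of these 1 rose and 9 fell with vehicle, and 1 rose and 8 fell with linagliptin, with medians of -0.27 and -0.10. The falls were near the shares of all genes that fell, 28.3% with vehicle and 21.9% with linagliptin. With vehicle 3 rose and 5 fell with median-of-ratios and with quantile scaling, and 1 rose and 19 fell in TPM. With linagliptin these counts were 2 and 6, 2 and 7, and 1 and 9. Ehd1, an ATPase of the recycling endosome, rose from 20.2 ± 2.56 FPKM (SD, n = 5) to 54.3 ± 22.1 (SD, n = 3) with vehicle, a log2 difference of 1.32 (adjusted p = 0.00183 from limma), and its log2 difference was 1.01 with linagliptin. Rab5a, a GTPase of the early endosome, fell from 46.0 ± 4.04 to 25.01 ± 2.04 FPKM with vehicle, a log2 difference of -0.85 (adjusted p = 0.000822 from limma), and its log2 difference was -1.04 with linagliptin. Snap23, a SNARE of exocytosis at the plasma membrane, had -0.98 and -1.02, and Lnpep, an aminopeptidase of the insulin-responsive vesicle, -1.08 and -1.20. Stx16, a SNARE of the trans-Golgi network, had -1.33 with vehicle, and Vamp7, a SNARE of late endosomes, -1.13 with linagliptin. For all 5 lists 0 genes passed between linagliptin and vehicle in control or in DM-HFD cells.

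Of the 22 list genes that passed with vehicle, 12 also passed whichever of the 8 libraries was left out: Scamp1, Adarb1, Eprs, Lars, Tars, Qtrt2, Ehd1, Lnpep, Rab5a, Rab10, Snap23 and Stx16. Leaving out DM-HFD vehicle replicate 3 ended all the others, those of Rars, Elp5, Tyw5, Alkbh8, Pus3, Nsun3, Stx4a, Stx12, Vamp3 and Vamp7. Leaving out control vehicle replicate 1, 2, 3 or 5 also ended those of Rars and Pus3, as leaving out DM-HFD vehicle replicate 2 did for Rars. Stx12 and Stx4a, like Rars, passed in 2 of the 8 fits that left out a library, Pus3 in 3, Vamp3 in 5 and Vamp7 in 6. With vehicle the model of Ballgown ended all 22 calls and turned the sign of Adarb1, Lnpep and Stx4a. A block for replicate number ended 10 of them, those of Scamp1 and Adarb1 included. Of the 27 that passed with linagliptin, 0 passed without DM-HFD linagliptin replicate 3. Of those named above, Vars, Mettl1, Ehd1, Tars and Tyw5 passed in only 2 of the 8 fits that left out a library. No call passed in more than 7. The model of Ballgown and the block for replicate number each ended all 27, and TPM ended those of Vars, Mettl1, Pus1 and Trmt112.

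The genes beside the pair on chromosome 10 did not pass between linagliptin and vehicle, where 0% of all genes passed in either kind of cell. The 5 nearest genes of the table on the side of the start were Abhd17a, Klf16, Rexo1, Tcf3 and Uqcr11, and the 5 on the other side were Csnk1g2, Btbd2, Mknk2, Mob3a and Ap3d1. In DM-HFD cells the log2 differences of these 10 genes between linagliptin and vehicle lay between -0.13 and 0.45. Those of the long row and Scamp4, -1.62 and 1.85, chose the pair, so their distance from the neighbours is a description. In control cells the differences of the 10 neighbours lay between -0.12 and 0.11. Uqcr11, a subunit of respiratory complex III, was higher in DM-HFD cells with vehicle (log2 difference 0.42, adjusted p = 0.0438 from limma). With linagliptin Mknk2, a kinase of the translation factor eIF4E, and Ap3d1, a subunit of the AP-3 vesicle adaptor, were higher by 0.61 and 0.40 (adjusted p = 0.0118 and 0.0433 from limma). The calls of Uqcr11 and Ap3d1 were ended by leaving out any of 7 of the 8 libraries, and that of Mknk2 by leaving out DM-HFD linagliptin replicate 3.

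The genes whose levels went most closely with each member over the 16 libraries were ranked by Spearman's rho of log2(FPKM + 1) among 11182 genes, as a description, since libraries of a condition share its effects. For the long row they were Nek6 with 0.79, Mt2 with 0.76 and Mrps21 with 0.75. For Scamp4 they were Hps4 with 0.83, Borcs6 with 0.82 and Pelp1 with 0.80.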

How the data were processed

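RNA of 16 cardiomyocyte cultures was enriched for poly(A) and prepared with a stranded kit. The authors trimmed reads with cutadapt, aligned them to GRCm38 with HISAT2 2.1.0 and estimated FPKM with StringTie 1.3.3 and Ballgown, per the labels and methods, and deposited FPKM per gene and per transcript. The annotation release was not given in the sources used here. In GENCODE M21, 10153 of 11631 gene identifiers were found with their version. From the transcript FPKM and exon lengths of that release, 100% of 6170 gene values over 387 genes were recovered within 1%.

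Values were tested with limma 3.58.1 in R 4.3.3 on log2(FPKM + 1), which understates changes of low genes, over genes whose mean reached 0.5 FPKM in either group, with a variance trend and Benjamini-Hochberg adjustment. The fit was tested on simulated data. A gene passed at an adjusted p under 0.05. Sums and ratios were tested by exact permutation. The members and lists were chosen with earlier results of these data known. Named were the members, their families, the synthetases, 5 neighbours on each side, the 5 lowest overlapping pairs, the 3 most alike genes per member and, of the other lists, up to 4 genes per direction and comparison. Alternatives were other pseudocounts, filters, scalings and models, a replicate block and leaving out each library. A line of each table with no identifier was not analysed here.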

Additional observations from a re-analysis of the deposited data

Results flagged for a closer look

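Several values lay far from the rest of their group of 5 libraries, by a gap test that flags about 1 in 20 groups by chance and was run on 22 groups of values. Of these, 6 belong to control vehicle replicate 2, and they share the same fragments. The long row of Adat3 was 5.36 FPKM there and its transcript Adat3-201 4.84. Scamp4 was 1.32 FPKM and its transcript Scamp4-201 0.705. The sum of the 3 rows was 6.95 FPKM, and the log2 ratio of Adat3 to Scamp4 was 1.52. The total of fragments, 27.8 FPM, was not far from the other libraries by the same test. In control vehicle replicate 1, Scamp4-202 was 0.381 FPKM, below the other 4 libraries of its group.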

How the results depend on the processing

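The direction of the long row and of Scamp4 in DM-HFD cells with linagliptin was kept under every alternative run, while the size moved. The long row differed by -2.24 and -2.34 with pseudocounts of 0.1 and 0.01, -1.87 in TPM, -1.78 with median-of-ratios scaling, -1.81 with gene values added up over transcripts and -1.81 with the model of Ballgown, which gave 1.38 for Scamp4. The log2 ratio of Adat3 to Scamp4 was -4.16 and -4.27 with those pseudocounts and -3.88 in TPM, and the sum was 0.39 in FPM, a scale chosen after seeing the data. With vehicle, DM-HFD minus control, the long row was 2.26 with a pseudocount of 0.01, the short row -0.62 in TPM and Scamp4 turned from -0.86 to 0.0832 with the model of Ballgown. The sum turned from -0.22 to 0.0395 with median-of-ratios scaling, 0.0782 with quantile scaling and 0.14 in FPM. With linagliptin the short row was -1.27 and -2.34 with pseudocounts of 0.1 and 0.01 and -0.81 in TPM. The cause of these changes was not tested.

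Genes passing between DM-HFD and control were 5478 in TPM with vehicle, and 0 with the model of Ballgown in both comparisons. Leaving out each replicate gave 2531 to 3712 with vehicle, 106 to 5796 with linagliptin, and 0 to 1 for linagliptin against vehicle in control cells and in DM-HFD cells. With linagliptin the count was 106 without DM-HFD linagliptin replicate 3, 1994 without replicate 2, 5796 without replicate 1, and 1637 and 1864 without control linagliptin replicates 2 and 5. The labels give no shared origin for equal replicate numbers. In control cells same-numbered libraries had correlations of 0.52, 0.29, 0.40, -0.33 and 0.38, and not every library correlated best with its own number. In the other comparisons they lay between -0.60 and 0.21, so the numbers were not taken to pair the samples. With the replicate block 0 genes passed in control cells, where 699 rather than 455 had an unadjusted p under 0.05, and 2088 genes passed with vehicle and 0 with linagliptin. Reads per library were not analysed here, so no counting limit is given for values listed at 0.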
